A study of Homo sapiens with 8 samples.

Results

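The proteasome genes of MDA-MB-231 cells were taken as the 50 rows, of 19583 in the table, whose symbols begin with PSMA, PSMB, PSMC, PSMD, PSME, PSMF or PSMG and a digit. They hold 7 alpha-ring genes (PSMA1 to PSMA7), 7 constitutive beta-ring genes (PSMB1 to PSMB7), the 3 immune catalytic genes PSMB8, PSMB9 and PSMB10, 6 ATPases (PSMC1 to PSMC6), 3 other base and 8 lid subunits, 4 activators, 1 inhibitor and 7 assembly chaperones. The other 4 rows were PSMA8, an alpha subunit of germ cells with 1 read in 1 of the 8 libraries, PSMC3IP, a factor of homologous recombination that shares only the letters of the name, and the antisense RNAs PSMG3-AS1 and PSMD6-AS2. Of the 50 rows, 48 had a mean of at least 1 and were tested among 12645 genes. PSMA8 and PSMD6-AS2 did not reach that mean, and 46 tested genes are parts of the proteasome, its regulators or its chaperones.

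Polyadenylated RNA was sequenced from MDA-MB-231, a human breast cancer line with mesenchymal features that lacks estrogen and progesterone receptors. Cells labelled with a hairpin against CHD4 (shCHD4), a nucleosome-remodelling ATPase, were kept at 1% O2 or at 20% O2 for 24 hours, and cells labelled with a scrambled hairpin (shSC) were kept at 1% O2 or at 20% O2 for 24 hours, with 2 libraries in each of the 4 groups. The study was set up to ask how CHD4 bears on hypoxia-inducible factors. The labels do not say whether the replicates were separate cultures, whether the hairpin cells were clones or pools, or how many hairpins were used, so each p-value rests on how far these replicate libraries lie apart, a spread that may be technical.

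The values are read counts divided by 1 factor per library, called normalised read counts below, and are not divided by gene length. The libraries held 24947627 to 31903585 reads. Libraries labelled shCHD4 had no less CHD4 mRNA: its mean was 293 ± 8.64 in shCHD4 and 279 ± 1.08 in shSC at 1% O2, and 299 ± 7.90 in shCHD4 and 299 ± 0.47 in shSC at 20% O2 (SD, n = 2 each). The limma log2 difference was 0.07 (adjusted p = 0.13) at 1% O2 and 0.0018 (adjusted p = 0.97) at 20% O2, so every comparison between labels below is between libraries that carry those labels, with no lower CHD4. The mesenchymal genes VIM, CD44, AXL and MSN were high in every library, while ESR1, PGR, CDH1 and the leukocyte gene PTPRC were near 0. SPARC was low, with means of 6.32 at 1% O2 and 6.33 at 20% O2 in shCHD4, and of 0.538 and 0.446 in shSC. Some genes looked up as low in this line, or as marks of other cell types, were not near 0. ERBB2 had means of 53.7 at 1% O2 and 52.3 at 20% O2 in shCHD4, and of 36.8 and 39.5 in shSC. Library values were 4.17 to 7.56 for EPCAM, 19.1 to 32.6 for COL1A1 and 108 to 122 for CD68.

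The proteasome is the protease that cuts up proteins tagged with ubiquitin. Its core is a barrel of alpha and beta rings, in which PSMB5, PSMB6 and PSMB7 carry the cutting sites. In immune cells, and in other cells under interferon, PSMB8, PSMB9 and PSMB10 take the places of PSMB5, PSMB6 and PSMB7 in newly built cores, and the peptides these cut are loaded on MHC class I. A regulatory particle caps the core: its base holds the ATPases PSMC1 to PSMC6, which unfold substrates, and its lid holds PSMD14, which removes the ubiquitin chain. Dedicated chaperones, PSMG1 to PSMG4 for the core and PSMD5, PSMD9 and PSMD10 for the base, hold parts together during assembly. The transcription factor NFE2L1 raises most of these genes when proteasome activity falls short.

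The start-site windows of the immune beta genes and of PSME1 and PSME2, the subunits of the interferon-induced activator, are shown because these 5 genes share an interferon link. Of the 5 only PSMB9 held the largest fall found at 1% O2, and the choice was made with these data known. Each window is 300 bases on the gene's own strand, 250 before the annotated start and 50 after it, from RefSeq on GRCh38.p14. In the first 4 the capitals mark a match to GAAA, any 2 bases and GAAA, the core of the interferon-stimulated response element, which reads TTTC, any 2 bases and TTTC on the other strand. In PSMB9 no such match was found, and the capitals mark TGACNNNGC, the core of the antioxidant response element, on the other strand. The windows are chr6:32843998-32844297 on the minus strand for PSMB8, chr16:67936801-67937100 on the minus strand for PSMB10, chr14:24135944-24136243 on the plus strand for PSME1, chr14:24146561-24146860 on the minus strand for PSME2 and chr6:32853942-32854241 on the plus strand for PSMB9.
PSMB8: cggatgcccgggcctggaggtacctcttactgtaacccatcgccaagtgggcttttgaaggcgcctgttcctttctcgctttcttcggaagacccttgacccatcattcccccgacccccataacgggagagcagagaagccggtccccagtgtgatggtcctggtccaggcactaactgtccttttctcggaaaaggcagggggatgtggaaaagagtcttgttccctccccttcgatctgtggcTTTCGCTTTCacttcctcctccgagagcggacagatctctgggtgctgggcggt
PSMB10: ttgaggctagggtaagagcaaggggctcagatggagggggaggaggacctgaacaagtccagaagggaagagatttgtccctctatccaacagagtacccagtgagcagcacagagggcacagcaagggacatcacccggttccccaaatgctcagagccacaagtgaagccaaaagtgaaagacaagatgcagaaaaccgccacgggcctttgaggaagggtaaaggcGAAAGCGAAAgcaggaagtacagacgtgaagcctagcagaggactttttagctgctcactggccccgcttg
PSME1: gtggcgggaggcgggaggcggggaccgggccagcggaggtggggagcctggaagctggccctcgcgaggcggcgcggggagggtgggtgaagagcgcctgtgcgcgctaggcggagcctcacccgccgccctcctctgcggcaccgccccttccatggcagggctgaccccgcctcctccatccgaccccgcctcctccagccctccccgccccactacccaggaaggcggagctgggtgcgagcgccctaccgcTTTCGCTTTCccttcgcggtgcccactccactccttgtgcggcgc
PSME2: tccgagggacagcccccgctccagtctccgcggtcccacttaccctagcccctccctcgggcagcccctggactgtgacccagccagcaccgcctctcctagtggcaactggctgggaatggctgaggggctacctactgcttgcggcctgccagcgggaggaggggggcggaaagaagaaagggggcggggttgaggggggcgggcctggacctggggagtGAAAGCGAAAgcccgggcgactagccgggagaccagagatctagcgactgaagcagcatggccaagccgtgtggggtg
PSMB9: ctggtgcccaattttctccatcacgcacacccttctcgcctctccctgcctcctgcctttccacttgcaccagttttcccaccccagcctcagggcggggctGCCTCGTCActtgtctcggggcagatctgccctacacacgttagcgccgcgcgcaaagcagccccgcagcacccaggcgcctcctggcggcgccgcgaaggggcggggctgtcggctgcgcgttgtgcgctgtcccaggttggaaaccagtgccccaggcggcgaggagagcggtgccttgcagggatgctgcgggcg

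Windows were found for 41 of the 47 proteasome genes looked up, 50 windows in all. Searched on both strands, with matches of different motifs counted apart, the GAAA pair stood in 7 of the 50 (14%), against 3.57% of all 35116 windows of the same length. Its genes were PSMA4, PSMB4, PSMB8, PSMB10, PSME1, PSME2 and PSMG4. The match began 4 bases before the start of PSMB8, 21 before that of PSMB10 and 28 before that of PSME2. TGACNNNGC stood in 15 of the 50 (30%), against 13.3% of all windows. For CCAAT the shares were 38% and 34.6%, and for ACGTG, the core of the hypoxia response element, 20% and 21.4%. PSMB9 and PSMB10 are among the 9 genes with ACGTG, which is not marked in the windows above. All of these are matches of letters, not shown sites.

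Proteasome genes were mostly lower at 1% than at 20% O2 under both labels, by small amounts. With limma and Benjamini-Hochberg adjustment over all tested genes at 0.05, 27 of the 46 fell and 1 rose under the shCHD4 label, where 10.7% of all tested genes fell and 12.3% rose. Under the shSC label 32 fell and 2 rose, where 17.9% of all genes fell and 17.4% rose. The median log2 change of the 46 was -0.15 under shCHD4 and -0.19 under shSC, against -0.0037 and -0.011 over all tested genes, and none of the 46 changed by 2-fold. In 41 genes under shCHD4 and 36 under shSC both libraries at 1% O2 were below both at 20% O2, an order that 33.5% of all genes under shCHD4 and 34.3% under shSC showed. In bulk libraries, a lower level in every cell and fewer cells with a high level cannot be told apart.

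The falls under both labels were in 24 genes, which are 88.9% of those that fell under shCHD4 and 75% of those that fell under shSC. The comparisons share no library, but both came from the same fit with a shared estimate of spread, so their calls are not independent. How many of all tested genes fell under both labels was not counted. PSMD8, PSMD13 and PSME4 passed only under shCHD4, and PSMA2, PSMB3, PSMB6, PSMB10, PSMC1, PSMC6, PSME1 and PSMG3 only under shSC. No member passed the test of the difference between the labels, so these lists do not show that the response differed. The count under shCHD4 rested on single libraries. Without replicate 1 at 1% O2 or replicate 1 at 20% O2 fewer members passed, and fewer of all tested genes. The median log2 change of the 46 under shCHD4 was then -0.14 and -0.11. PSMB2, PSMB9, PSMC2, PSMC3, PSMD1, PSMD3, PSMD11 and PSME3 were called as lower under shCHD4 in every alternative tried.

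**Figure D1:**
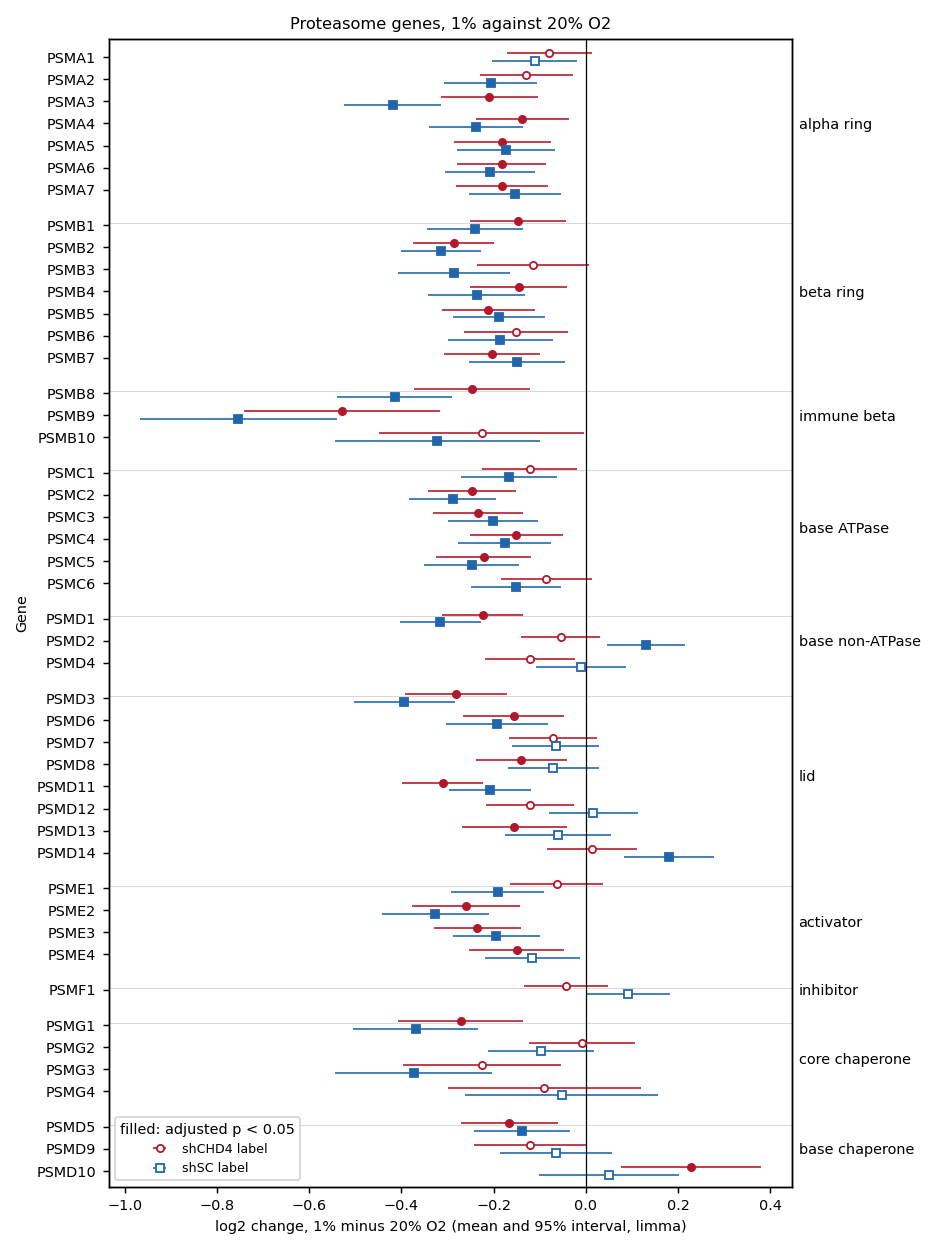
Log2 change between 1% and 20% O2 (x axis, limma estimate with its 95% interval) of 46 proteasome genes (y axis, grouped by role), with circles for the shCHD4 label and squares for the shSC label, n = 2 libraries a group, and filled symbols for adjusted p under 0.05. Most symbols lie left of 0, and PSMB9 lies farthest left.

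The immune catalytic genes held the largest fall. PSMB9, which replaces PSMB6 at the caspase-like site, had 11.9 and 12.2 normalised read counts at 1% O2 and 17.6 and 17.6 at 20% O2 under shCHD4. Under shSC it had 5.43 and 6.75 at 1% O2 and 11.3 and 9.88 at 20% O2. The libraries at the O2 levels did not overlap under either label. The log2 change was -0.53 under shCHD4 (95% interval -0.74 to -0.32, adjusted p = 0.0012) and -0.75 under shSC (-0.97 to -0.54, adjusted p = 1.8e-05), or 1.44-fold and 1.69-fold lower.

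PSMB8, which replaces PSMB5 at the chymotrypsin-like site, had 41.0 and 43.4 normalised read counts at 1% O2 and 51.3 and 49.1 at 20% O2 under shCHD4. Under shSC it had 31.0 and 32.7 at 1% O2 and 43.2 and 42.0 at 20% O2. All libraries at 1% O2 were below those at 20% O2 of the same label, and PSMB8 fell by 0.25 under shCHD4 (adjusted p = 0.0063) and by 0.41 under shSC (adjusted p = 3.4e-05) on the log2 scale. The shCHD4 call was lost without replicate 1 at 1% O2 (-0.21, adjusted p = 0.099) or without replicate 1 at 20% O2 (-0.22, adjusted p = 0.082). Reads of PSMB8 and of its antisense RNA PSMB8-AS1 cannot be told apart where counting ignored strand.

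PSMB10, which replaces PSMB7 at the trypsin-like site, had values of 16.9 and 15.9 at 1% O2 and 21.6 and 17.2 at 20% O2 under shCHD4, and of 15.0 and 15.9 at 1% O2 and 21.7 and 17.3 at 20% O2 under shSC. The replicates at 20% O2 lay far apart under both labels. It fell by 0.32 under shSC (adjusted p = 0.025), and its change of -0.23 under shCHD4 did not pass (adjusted p = 0.13). The shSC call was lost without replicate 1 (-0.28, adjusted p = 0.14) or replicate 2 (-0.36, adjusted p = 0.054) at 1% O2, and without replicate 1 at 20% O2 (-0.16, adjusted p = 0.29).

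The constitutive counterparts were followed in the same libraries. PSMB5 had 111 and 119 normalised read counts at 1% O2 and 134 and 131 at 20% O2 under shCHD4, and 108 and 106 at 1% O2 and 123 and 120 at 20% O2 under shSC. PSMB6 had 107 and 111 at 1% O2 and 125 and 117 at 20% O2 under shCHD4, and 88.7 and 92.8 at 1% O2 and 108 and 98.7 at 20% O2 under shSC. PSMB7 had 109 and 116 at 1% O2 and 133 and 127 at 20% O2 under shCHD4, and 187 and 178 at 1% O2 and 209 and 196 at 20% O2 under shSC. In each case the libraries at 1% O2 were the lower ones. PSMB5 and PSMB7 fell under shCHD4 by 0.21 and 0.20, and the change of PSMB6 (-0.15) did not pass (adjusted p = 0.051). Under shSC all 3 fell, PSMB5 by 0.19, PSMB6 by 0.19 and PSMB7 by 0.15. Without replicate 1 at 1% O2 or replicate 1 at 20% O2 the shCHD4 calls were lost, at -0.16 and -0.20 for PSMB5 and -0.16 and -0.17 for PSMB7. The PSMB6 call under shSC was lost without replicate 1 at 1% O2 (-0.15) or at 20% O2 (-0.12), and the PSMB7 call under shSC without replicate 2 at 1% O2 (-0.12) or replicate 1 at 20% O2 (-0.10).

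The log2 ratio of each immune gene to its counterpart was followed by library, as a description, and its difference between groups was not tested. PSMB9 over PSMB6 was -3.16 and -3.19 at 1% O2 and -2.83 and -2.74 at 20% O2 under shCHD4. Under shSC it was -4.03 and -3.78 at 1% O2 and -3.26 and -3.32 at 20% O2. The ratio was lower at 1% O2 in every library of the same label, and lower in every shSC library than in every shCHD4 library at the same O2 level. Divided by exon length, PSMB9 made up 9.47% ± 0.12 of PSMB9 plus PSMB6 at 1% O2 and 12.1% ± 0.46 at 20% O2 under shCHD4, and 5.97% ± 0.68 at 1% O2 and 8.84% ± 0.26 at 20% O2 under shSC (SD, n = 2 each).

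PSMB8 made up, of PSMB8 plus PSMB5, 25.8% ± 0.23 at 1% O2 and 26.3% ± 0.30 at 20% O2 under shCHD4. Under shSC it was 22.0% ± 0.87 at 1% O2 and 24.8% ± 0.045 at 20% O2. The shSC libraries at 1% O2 were the lowest of the 8. The share of PSMB10 in PSMB10 plus PSMB7 was 10.5% ± 0.77 at 1% O2 and 10.7% ± 1.22 at 20% O2 under shCHD4, and 6.38% ± 0.42 at 1% O2 and 7.18% ± 0.76 at 20% O2 under shSC. There the libraries at the O2 levels overlapped under each label. Between labels PSMB7 was lower in shCHD4, by 0.69 at 1% O2 and 0.64 at 20% O2. PSMB10 itself did not pass between labels, at 0.09 and -0.01.

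**Figure D2:**
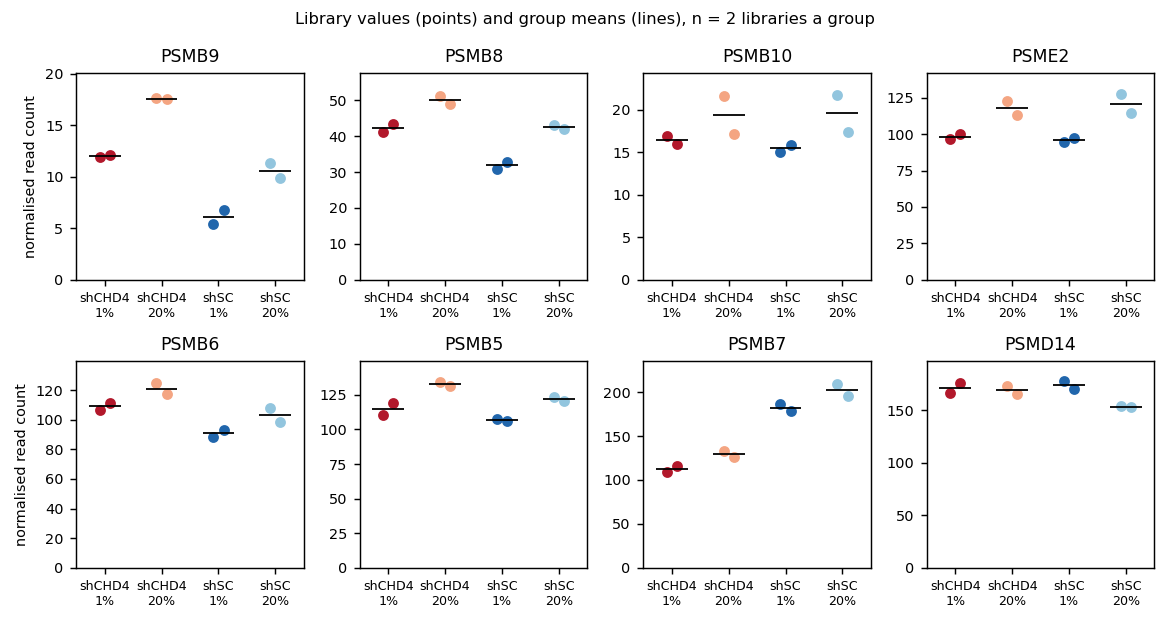
Normalised read count (y axis, from 0) of the 3 immune beta genes, their constitutive counterparts, PSME2 and PSMD14 in each library (points) and the mean of each group (lines), n = 2 libraries a group. PSMB9 stands between 5.43 and 6.75 in the shSC libraries at 1% O2 and at 17.6 in those labelled shCHD4 at 20% O2.

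In the alpha ring, which gates entry to the core, 5 of 7 genes fell under shCHD4 and 6 of 7 under shSC. PSMA3 had 132 and 133 normalised read counts at 1% O2 and 160 and 146 at 20% O2 under shCHD4, and 79.1 and 82.0 at 1% O2 and 109 and 107 at 20% O2 under shSC. It fell by 0.21 under shCHD4 (adjusted p = 0.0059) and by 0.42 under shSC (adjusted p = 4.4e-06), the smallest p of the 46 in that comparison. Its change under shCHD4 was -0.20 (adjusted p = 0.060) without replicate 1 at 1% O2 and -0.14 (adjusted p = 0.14) without replicate 1 at 20% O2. The change of PSMA1, the member that passed under neither label, was -0.08 under shCHD4 and -0.11 under shSC. PSMA3 has an antisense gene and PSMA2, PSMA3 and PSMA6 have named pseudogenes, whose reads the counting could have shared.

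In the constitutive beta ring 5 of 7 genes fell under shCHD4 and all 7 under shSC. PSMB2, a structural beta subunit, had 234 and 232 normalised read counts at 1% O2 and 286 and 282 at 20% O2 under shCHD4. Under shSC it had 131 and 135 at 1% O2 and 164 and 166 at 20% O2. Replicates lay close together and the O2 levels apart: PSMB2 fell by 0.29 under shCHD4 (adjusted p = 8.4e-05) and by 0.31 under shSC (adjusted p = 1.5e-05).

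Of the 6 base ATPases, 4 fell under shCHD4 and 6 under shSC. PSMC2 had 154 and 156 normalised read counts at 1% O2 and 188 and 179 at 20% O2 under shCHD4, and 95.9 and 93.1 at 1% O2 and 116 and 115 at 20% O2 under shSC. It fell by 0.25 under shCHD4 (adjusted p = 8.2e-04) and by 0.29 under shSC (adjusted p = 8.5e-05). The smallest changes were those of PSMC6, -0.09 under shCHD4 (adjusted p = 0.20) and -0.15 under shSC (adjusted p = 0.017, and 0.12 without shSC replicate 2 at 1% O2, at -0.12).

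The large base subunits PSMD1 and PSMD2, which dock ubiquitin receptors and shuttle proteins, went different ways under shSC. PSMD1 had 217 and 211 normalised read counts at 1% O2 and 250.1 and 249.8 at 20% O2 under shCHD4, and 161 and 160.0 at 1% O2 and 202 and 198 at 20% O2 under shSC. It fell by 0.22 under shCHD4 (adjusted p = 8.7e-04) and by 0.32 under shSC (adjusted p = 1.4e-05). PSMD2 had 1076 and 1092 at 1% O2 and 1139.9 and 1112 at 20% O2 under shCHD4, and 1359 and 1331 at 1% O2 and 1248 and 1209 at 20% O2 under shSC. Its libraries at 1% O2 were the lower ones under shCHD4 and the higher ones under shSC. PSMD2 rose by 0.13 under shSC (adjusted p = 0.018), a call lost without shSC replicate 1 at 1% O2 (0.12, adjusted p = 0.089) or without shSC replicate 2 at 20% O2 (0.11, adjusted p = 0.099), and the value was -0.06 after quantile normalization (adjusted p = 0.16). Under shCHD4 its change was -0.05 (adjusted p = 0.35). The ubiquitin receptor PSMD4 was at -0.12 under shCHD4 (adjusted p = 0.069) and -0.01 under shSC (adjusted p = 0.89).

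In the lid 5 of 8 genes fell under shCHD4, and under shSC 3 fell and 1 rose. PSMD3 had 168 and 172 normalised read counts at 1% O2 and 212 and 201 at 20% O2 under shCHD4, and 72.5 and 79.9 at 1% O2 and 103 and 97.4 at 20% O2 under shSC. It fell by 0.28 under shCHD4 (adjusted p = 9.1e-04) and by 0.39 under shSC (adjusted p = 1.5e-05). PSMD11, whose level limits assembly of the capped particle in stem cells, had 199 and 205 at 1% O2 and 249 and 252 at 20% O2 under shCHD4. In shSC it had 183 and 179 at 1% O2 and 206 and 212 at 20% O2. Its fall of 0.31 under shCHD4 had the smallest p of the 46 in that comparison (adjusted p = 3.8e-05), and it fell by 0.21 under shSC (adjusted p = 9.0e-04).

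PSMD14, the deubiquitinase of the lid, did not fall. It had 166 and 176 normalised read counts at 1% O2 and 173 and 165 at 20% O2 under shCHD4, where the O2 levels overlapped. Under shSC it had 177 and 170.1 at 1% O2 and 154 and 153 at 20% O2, with no overlap. It rose by 0.18 under shSC (adjusted p = 0.0057), a call lost without shSC replicate 1 at 1% O2 (0.15, adjusted p = 0.063), and was at 0.01 under shCHD4 (adjusted p = 0.86).

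Among the activators, PSME2 of the interferon-induced cap had 96.8 and 99.8 normalised read counts at 1% O2 and 123 and 113 at 20% O2 under shCHD4, and 94.8 and 97.6 at 1% O2 and 127 and 114 at 20% O2 under shSC. It fell by 0.26 under shCHD4 (adjusted p = 0.0028) and by 0.33 under shSC (adjusted p = 1.9e-04). Without shCHD4 replicate 1 at 20% O2 the change under shCHD4 was -0.20 (adjusted p = 0.063). Its partner PSME1 had 115 and 118 at 1% O2 and 127 and 117 at 20% O2 under shCHD4, and 104 and 103 at 1% O2 and 118 and 119 at 20% O2 under shSC. PSME1 fell by 0.19 under shSC (adjusted p = 0.0050), while under shCHD4 its O2 levels overlapped and the change of -0.06 did not pass (adjusted p = 0.36).

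PSME3, a nuclear activator that works without ubiquitin, had 238 and 243 normalised read counts at 1% O2 and 289 and 278 at 20% O2 under shCHD4, and 201 and 193 at 1% O2 and 232 and 219 at 20% O2 under shSC. It fell by 0.24 under shCHD4 (adjusted p = 0.0011) and by 0.19 under shSC (adjusted p = 0.0026). PSME4, another nuclear activator, had 205 and 209 at 1% O2 and 223 and 236 at 20% O2 under shCHD4, and 273 and 247 at 1% O2 and 280 and 283 at 20% O2 under shSC. It fell by 0.15 under shCHD4 (adjusted p = 0.035), and its change of -0.12 under shSC did not pass (adjusted p = 0.075). That shCHD4 call was lost on leaving out any 1 of the 4 libraries compared. PSMF1, an inhibitor of the core in the test tube, had 151 and 155 at 1% O2 and 158 and 157 at 20% O2 under shCHD4, and 117.9 and 118 at 1% O2 and 112 and 109.9 at 20% O2 under shSC. It passed under neither label (-0.04, adjusted p = 0.51 under shCHD4, and 0.09, adjusted p = 0.11 under shSC).

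Among the core chaperones PSMG1 had 35.9 and 39.0 normalised read counts at 1% O2 and 47.8 and 42.9 at 20% O2 under shCHD4, and 38.3 and 37.5 at 1% O2 and 48.5 and 49.7 at 20% O2 under shSC. It fell by 0.27 under shCHD4 (adjusted p = 0.0056; -0.21 without replicate 1 at 1% O2 and -0.19 without replicate 1 at 20% O2, neither of which passed) and by 0.37 under shSC (adjusted p = 2.35e-04). PSMG3 had 30.5 and 32.8 at 1% O2 and 38.4 and 35.7 at 20% O2 under shCHD4, and 20.4 and 24.6 at 1% O2 and 30.3 and 28.1 at 20% O2 under shSC. Its fall of 0.37 passed under shSC (adjusted p = 0.0016), and its change of -0.23 under shCHD4 did not (adjusted p = 0.053).

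Their partners were flat by comparison. PSMG2, which pairs with PSMG1, had 63.4 and 67.0 normalised read counts at 1% O2 and 68.6 and 62.7 at 20% O2 under shCHD4, and 74.3 and 74.1 at 1% O2 and 79.9 and 78.9 at 20% O2 under shSC. PSMG4, which pairs with PSMG3, had 16.7 and 16.2 at 1% O2 and 18.04 and 17.1 at 20% O2 under shCHD4, and 8.33 and 8.80 at 1% O2 and 10.1 and 7.87 at 20% O2 under shSC. Neither passed under either label, with log2 changes between -0.10 and -0.0086 and intervals that reach -0.30.

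The base chaperones PSMD5 and PSMD10 moved apart under shCHD4. PSMD5 had 61.6 and 59.8 normalised read counts at 1% O2 and 68.7 and 67.6 at 20% O2 under shCHD4, and 115 and 107 at 1% O2 and 122 and 123 at 20% O2 under shSC. It fell by 0.17 under shCHD4 (adjusted p = 0.023) and by 0.14 under shSC (adjusted p = 0.037). The shCHD4 call was lost on leaving out any 1 of the 4 shCHD4 libraries (-0.19 to -0.14). The shSC call was lost without either shCHD4 library at 1% O2, shSC replicate 2 at 1% O2 or either shSC library at 20% O2 (-0.14 to -0.087). PSMD10, also called gankyrin, had 46.4 and 51.0 at 1% O2 and 43.0 and 40.01 at 20% O2 under shCHD4, and 37.8 and 39.95 at 1% O2 and 34.8 and 40.4 at 20% O2 under shSC. It rose by 0.23 under shCHD4 (adjusted p = 0.030), a call lost without replicate 2 at 1% O2 (0.16, adjusted p = 0.26) or without either replicate at 20% O2 (0.28 and 0.18). Under shSC the O2 levels overlapped (0.05, adjusted p = 0.62).

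PSMC3IP, no part of the proteasome, had 27.2 and 29.1 normalised read counts at 1% O2 and 33.8 and 32.8 at 20% O2 under shCHD4, and 22.9 and 22.1 at 1% O2 and 30.5 and 27.5 at 20% O2 under shSC. It fell by 0.24 under shCHD4 (adjusted p = 0.019) and by 0.36 under shSC (adjusted p = 6.4e-04). The shCHD4 call was lost without replicate 1 at 1% O2 (-0.19, adjusted p = 0.19), or without replicate 1 (-0.22) or replicate 2 (-0.26) at 20% O2.

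Whether members responded to O2 differently under the labels was tested as an interaction. In the O2 change under shCHD4 minus that under shSC, 0 of the 46 passed in limma, where 4.36% of all tested genes did, and 6 had an unadjusted p under 0.05, as did 2301 of all 12645 tested genes. edgeR's quasi-likelihood test called 0 and DESeq2 called 1, PSMD2 (-0.19, adjusted p = 0.037). In limma PSMD2 had the smallest p (-0.19, 95% interval -0.31 to -0.06, adjusted p = 0.077), and it passed without shSC replicate 1 at 20% O2 (-0.21, adjusted p = 0.047). PSMA3 was next (0.21, interval 0.06 to 0.36, adjusted p = 0.10). PSMB9 was at 0.23 with an interval of -0.08 to 0.53 (adjusted p = 0.44), which does not show that its fall was alike under the labels.

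Between labels the proteasome genes were mostly higher in libraries labelled shCHD4, in a setting where most genes differed. At 1% O2 29 of the 46 were higher and 7 lower in shCHD4 than in shSC, where 38.2% of all tested genes were higher and 39.2% lower. At 20% O2 30 were higher and 6 lower, where 37.0% of all genes were higher and 38.6% lower. The median log2 difference of the 46 was 0.27 at 1% O2 and 0.24 at 20% O2, against -0.0067 and -0.0091 over all genes. Dividing by library totals moved the median of all genes at 1% O2 to 0.103. In 33 of the 46 genes at 1% O2 and 31 at 20% O2 every shCHD4 library was above every shSC library, an order that 43.9% of all genes at 1% O2 and 42.6% at 20% O2 showed. Of the genes called higher, 26 were shared between the O2 levels, 89.7% of those at 1% O2 and 86.7% of those at 20% O2. These calls also came from that same fit, and the number shared over all tested genes was not counted.

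**Figure D3:**
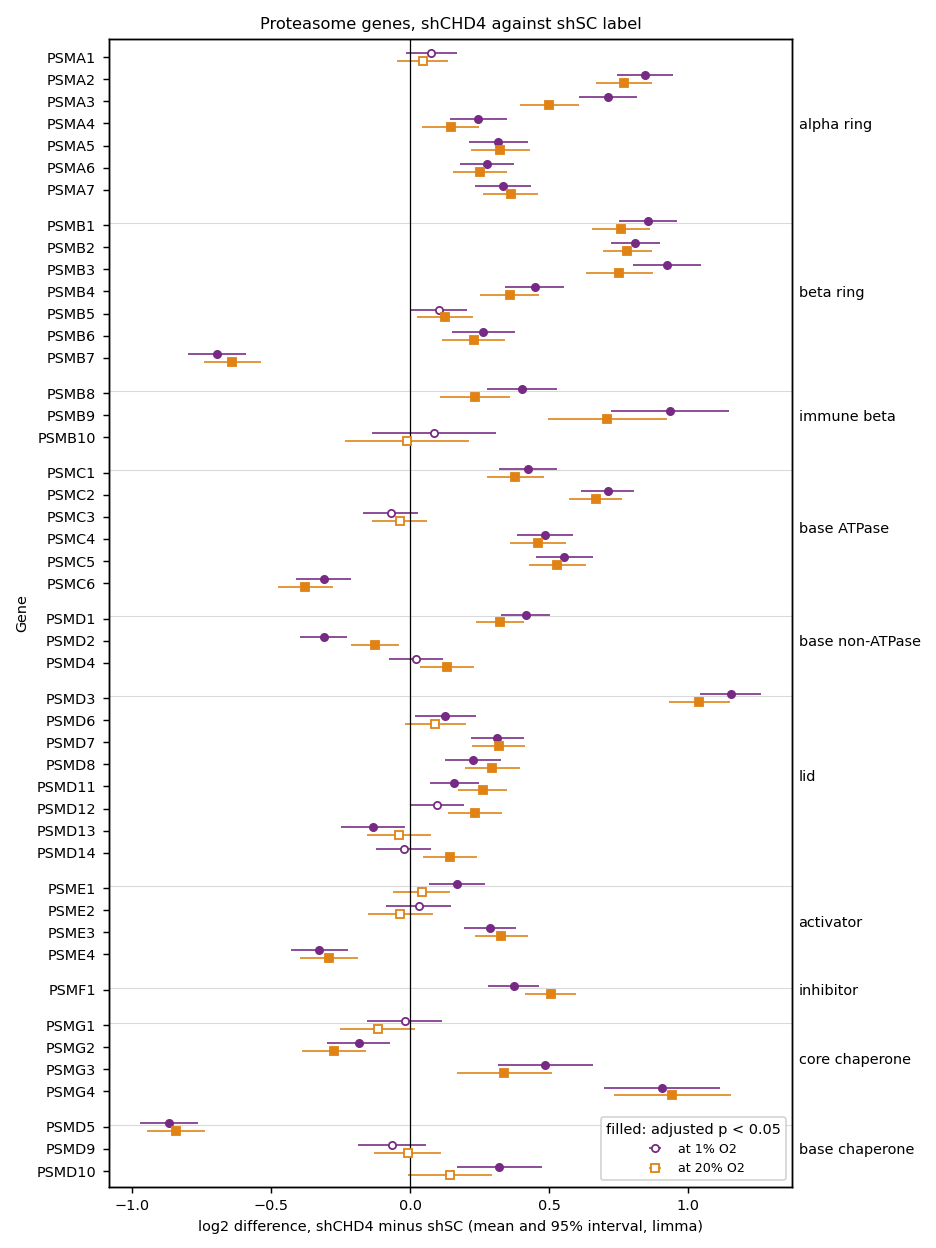
Log2 difference between libraries labelled shCHD4 and shSC (x axis, limma estimate with its 95% interval) of 46 proteasome genes (y axis, grouped by role), with circles at 1% O2 and squares at 20% O2, n = 2 libraries a group, and filled symbols for adjusted p under 0.05. PSMD3 lies farthest right, and PSMD5 and PSMB7 lie farthest left.

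PSMD3 differed most. Its library values, given above, were 168 to 212 in shCHD4 and 72.5 to 103 in shSC libraries, and its log2 difference was 1.15 at 1% O2, with a 95% interval of 1.04 to 1.26 (adjusted p = 4.8e-13). At 20% O2 it was 1.04, with an interval of 0.93 to 1.15 (adjusted p = 2.3e-12), which is 2.06-fold, against 2.22-fold at 1% O2. PSMB2 had the next smallest p, with 0.81 at 1% O2 and 0.78 at 20% O2 (adjusted p = 2.9e-12 and 5.1e-12). PSMC2 was at 0.71 at 1% O2 and 0.67 at 20% O2 (adjusted p = 6.6e-11 and 1.8e-10).

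The structural core subunits PSMA2, PSMB1 and PSMB3 were also higher. PSMA2 had 170.5 and 183 normalised read counts in shCHD4 and 97.2 and 99.2 in shSC at 1% O2, and 198 and 189 in shCHD4 and 114 and 112 in shSC at 20% O2. PSMB1 had 199 and 214 in shCHD4 and 111 and 117 in shSC at 1% O2, and 234 and 223 in shCHD4 and 137 and 132 in shSC at 20% O2. PSMB3 had 112 and 120 in shCHD4 and 60.1 and 61.4 in shSC at 1% O2, and 132 and 119 in shCHD4 and 77.3 and 71.2 in shSC at 20% O2. No libraries of the labels overlapped, and the log2 differences were 0.85, 0.85 and 0.92 at 1% O2 and 0.77, 0.76 and 0.75 at 20% O2.

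By role, 6 of 7 alpha genes were higher in shCHD4 at both O2 levels, PSMA1 being the exception. In the constitutive beta ring 5 of 7 at 1% O2 and 6 of 7 at 20% O2 were higher, and PSMB7 was lower. Of the ATPases 4 were higher at each O2 level, PSMC6 was lower and PSMC3 did not pass. Of the lid genes 5 were higher and PSMD13 lower at 1% O2, and 6 were higher at 20% O2. The PSMD13 call (-0.13) was lost with library totals, median centring, quantile normalization or DESeq2, among other alternatives. The PSMD6 call at 1% O2 (0.13) was lost with DESeq2, with no variance trend or with no filter on low values. The PSMD14 call at 20% O2 (0.14) was lost without shCHD4 replicate 1 (0.11). The inhibitor PSMF1 was higher by 0.37 with 1% O2 (adjusted p = 3.1e-07), and by 0.51 with 20% O2 (adjusted p = 5.1e-09).

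The immune genes split. PSMB9 was higher in shCHD4, by 0.93 (adjusted p = 1.2e-07) with 1% O2 and 0.71 (adjusted p = 4.5e-06) with 20% O2. PSMB8 was higher too, by 0.40 (adjusted p = 6.4e-06) with 1% O2 and 0.23 (adjusted p = 0.0017) with 20% O2. PSMB10 did not pass, at 0.09 (adjusted p = 0.47) and -0.01 (adjusted p = 0.94). The activators differed in direction: PSME3 was higher by 0.29 at 1% O2 and 0.33 at 20% O2, PSME4 was lower by 0.33 and 0.29, PSME1 was higher at 1% O2 (0.17, adjusted p = 0.0038) and was at 0.04 at 20% O2 (adjusted p = 0.44), and PSME2 passed at neither level.

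Genes lower in shCHD4 at both O2 levels were PSMD5, PSMB7, PSMC6, PSME4, PSMG2 and PSMD2. PSMD5 was at -0.87 (adjusted p = 1.4e-11) at 1% O2 and -0.84 (adjusted p = 2.4e-11) at 20% O2, and PSMB7 at -0.69 (adjusted p = 3.5e-10) and -0.64 (adjusted p = 1.2e-09). PSMC6 had 95.2 and 98.7 normalised read counts in shCHD4 and 123 and 118 in shSC at 1% O2, and 104 and 101 in shCHD4 and 133 and 134 in shSC at 20% O2. PSMD2 was at -0.31 (adjusted p = 1.35e-06) at 1% O2 and -0.13 (adjusted p = 0.0093) at 20% O2, but at 0.0073 and 0.023 after quantile normalization. Its 20% O2 call was also lost without shCHD4 replicate 2 (-0.11, adjusted p = 0.074) or shSC replicate 1 (-0.10, adjusted p = 0.063) at 20% O2.

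Several of these genes lie in stretches of chromosomes where the labels differ together. For each gene the median label difference at 20% O2 of up to 20 tested neighbours on either side was taken, with gene order from RefSeq. Over all tested genes the lowest 5% of these medians lay below -0.42 and the highest 5% above 0.44. On chromosome 9 the neighbours of PSMB7 had a median of -0.72 and those of PSMD5 -0.71, close to the genes' own -0.64 and -0.84. On chromosome 6 the neighbours of PSMG4 had a median of 0.88, beside its own 0.94, and those of PSMB8 and PSMB9 both had 0.52. The neighbours of PSMB10 on chromosome 16 had 0.47. On the X chromosome those of PSMD10 had -0.66, beside its own 0.14.

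Other members with large differences had neighbours near 0: those of PSMD3 had a median of 0.11, those of PSMB2 0.04, those of PSMB1 0.13, those of PSMB3 0.12 and those of PSMC2 0.12. The neighbours of PSMA2 on chromosome 7 had 0.39, beside its own 0.77. With each gene centred on its neighbours in every library, PSMD3 was at 0.99 at 1% O2 and 0.86 at 20% O2. PSMA2 was at 0.53 and 0.42 and passed at both levels. PSMB9 was at 0.51 and 0.25 and still passed (adjusted p = 8.0e-05 and 0.023). PSMB8 was at -0.03 and -0.22, PSMB7 at 0.05 and 0.10, and PSMG4 at 0.05 and 0.04, of which the PSMB8 value at 20% O2 passed (adjusted p = 0.0021). PSMD10 passed as higher, at 0.95 and 0.77, and PSMB10 as lower, at -0.43 and -0.48. PSMD5 was at -0.22 (adjusted p = 0.0010) and -0.12 (adjusted p = 0.051). PSMD2 was at 0.04 (adjusted p = 0.47) and 0.18 (adjusted p = 0.0018), and so passed as higher at 20% O2. PSMG2 was at 0.16 (adjusted p = 0.021) and 0.07 (adjusted p = 0.30), and so passed as higher at 1% O2. PSME3 was at 0.16 and 0.19, PSME4 at -0.28 and -0.16 and PSMF1 at 0.23 and 0.35, and each still passed. In that version 28 of the 46 members were higher and 6 lower in shCHD4 at 1% O2, and 29 were higher and 4 lower at 20% O2. Of the 12398 genes tested there, 4556 were higher and 4590 lower at 1% O2, and 4482 were higher and 4445 lower at 20% O2. What shifted these stretches was not tested.

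**Figure D4:**
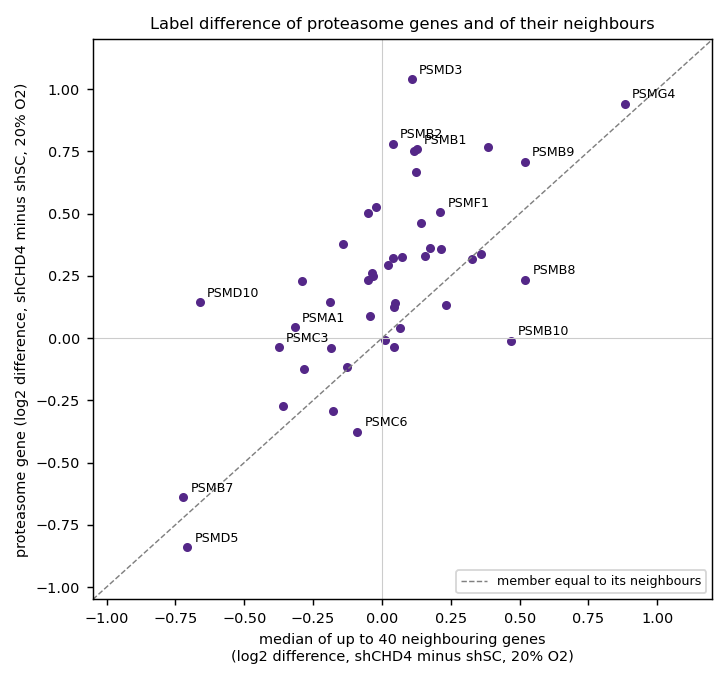
Log2 difference between libraries labelled shCHD4 and shSC at 20% O2 of each of 46 proteasome genes (y axis) against the median of up to 40 neighbouring tested genes (x axis), with a dashed line where both are equal. PSMB7, PSMD5 and PSMG4 lie near the line, PSMD3 and PSMB2 lie far above it and PSMB10 below it.

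Levels of different genes were compared only after division by length, as normalised read count per kb of exon from the union of GENCODE coding transcripts, which may not be the transcripts these cells use. PSMD2 was the highest in all 4 groups, at 305 in shCHD4 at 1% O2, 317 in shCHD4 at 20% O2, 378 in shSC at 1% O2 and 346 in shSC at 20% O2. The medians of the alpha and constitutive beta rings in those groups were 106, 121, 75.1 and 81.1, and 125, 139, 104 and 119. The immune genes had medians of 13.5, 19.1, 12.7 and 16.0, and PSMG4 was the lowest member, at 2.83, 3.02, 1.47 and 1.54. Within the core rings the levels ran from 21.5 for PSMA4 in shSC at 1% O2 to 246 for PSMB1 in shCHD4 at 20% O2.

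**Figure D5:**
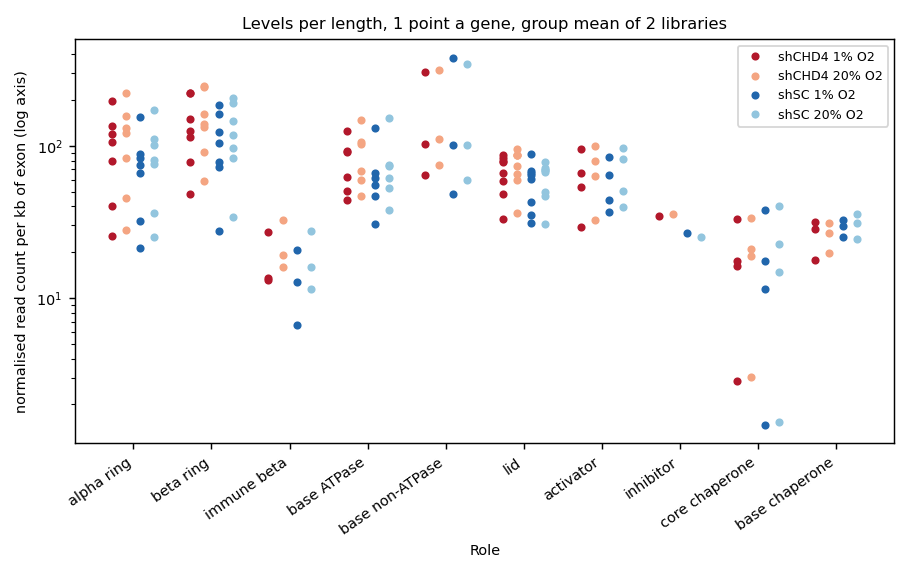
Normalised read count per kb of exon (y axis, log scale) of each proteasome gene, by role (x axis) and group (colours), each point the mean of n = 2 libraries. The medians of the immune beta genes, 12.7 to 19.1, lie below those of both core rings in all 4 groups.

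Of 27 tested genes with a link to the proteasome, 3 rose and 2 fell at 1% O2 under shCHD4, and 4 rose and 4 fell under shSC, with medians of -0.06 and -0.03. Of all tested genes 12.3% rose and 10.7% fell under shCHD4, and 17.4% rose and 17.9% fell under shSC, so these counts are near or below the share of all genes. NFE2L1 had a mean of 282 ± 2.53 at 1% O2 and 251 ± 2.57 at 20% O2 under shCHD4, and 564 ± 26.3 at 1% O2 and 454 ± 10.3 at 20% O2 under shSC (SD, n = 2 each). It rose under both labels, by 0.17 under shCHD4 (adjusted p = 0.0090, lost without either 1% O2 replicate at 0.16 and 0.18 or without replicate 2 at 20% O2 at 0.16) and by 0.31 under shSC (adjusted p = 2.4e-05), while most proteasome genes fell. NGLY1, an enzyme that NFE2L1 needs for its activation, rose under shSC by 0.24 (adjusted p = 0.0024) and was at 0.05 under shCHD4 (adjusted p = 0.52). The NGLY1 interaction did not pass in limma (-0.185, adjusted p = 0.19). VCP, the ATPase that extracts proteins from membranes and complexes, fell by 0.16 under shCHD4 (adjusted p = 0.016; lost without either replicate at 1% O2, at -0.13 and -0.18, or replicate 1 at 20% O2, at -0.14) and by 0.20 under shSC (adjusted p = 0.0020).

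UBB, a gene that encodes ubiquitin, fell by 0.26 under shSC (adjusted p = 0.0017) and was at -0.05 under shCHD4 (adjusted p = 0.57). The UBB interaction did not pass in limma (0.21, adjusted p = 0.16). ADRM1, a ubiquitin receptor of the base whose symbol is outside the name rule, averaged 246 ± 4.60 at 1% O2 and 282 ± 1.58 at 20% O2 under shCHD4, and 234 ± 0.78 at 1% O2 and 220.0 ± 9.72 at 20% O2 under shSC. It fell by 0.19 under shCHD4 (adjusted p = 0.0038; -0.17, adjusted p = 0.062, without replicate 2 at 1% O2) and was at 0.09 under shSC (adjusted p = 0.12). The difference itself passed in limma (-0.28, adjusted p = 0.012), but not without shCHD4 replicate 2 at 1% O2 (-0.26). It was also lost in limma with no filter on low values (adjusted p = 0.064) or no variance trend (adjusted p = 0.12).

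Between labels 10 of the 27 were higher and 13 lower in shCHD4 at each O2 level. Among all tested genes 38.2% were higher and 39.2% lower at 1% O2, and 37.0% higher and 38.6% lower at 20% O2. POMP, the chaperone that completes the core, was higher by 1.15 at 1% O2 and by 1.18 at 20% O2, with a neighbour median of 0.64 at 20% O2 on chromosome 13. VCP was higher by 0.89 and 0.85, on a stretch of chromosome 9 with a neighbour median of -0.06. NFE2L1 was lower by 0.99 and 0.85 and NFE2L2, a relative that answers oxidative stress, by 0.97 and 1.102. These are mRNA levels. Whether either regulator bears on the proteasome genes, between labels or between O2 levels, was not tested.

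Of 13 tested genes of antigen presentation, 2 rose and 5 fell at 1% O2 under shCHD4, and 3 rose and 4 fell under shSC. Among all tested genes 12.3% rose and 10.7% fell under shCHD4, and 17.4% rose and 17.9% fell under shSC. NLRC5, the transactivator of MHC class I genes and of PSMB9, averaged 11.1 ± 0.25 at 1% O2 and 14.3 ± 0.19 at 20% O2 under shCHD4, and 12.2 ± 0.054 at 1% O2 and 21.7 ± 1.00 at 20% O2 under shSC. It fell by 0.36 under shCHD4 (adjusted p = 0.0034) and by 0.81 under shSC (adjusted p = 3.6e-07). The interaction passed in limma (0.45, adjusted p = 0.025) with all 8 libraries, but not on leaving out any 1 of 6 of them, with values of 0.41 to 0.47. With all 8 libraries it did not pass in DESeq2 (adjusted p = 0.12) or in limma with no filter on low values (adjusted p = 0.087). IRF1, an interferon-response factor, fell by 0.31 under each label (adjusted p = 4.5e-04 and 2.6e-04), and TAP2, of the peptide transporter encoded beside PSMB8, by 0.31 under shCHD4 and 0.25 under shSC.

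Between labels 2 of the 13 were higher and 7 lower in shCHD4 at 1% O2, and 3 were higher and 7 lower at 20% O2. Among all tested genes 38.2% were higher and 39.2% lower at 1% O2, and 37.0% higher and 38.6% lower at 20% O2. HLA-B was lower in shCHD4 by 1.22 at 1% O2 and 1.17 at 20% O2, and B2M by 0.64 and 0.71, while PSMB9 was higher. TAP1, which shares a divergent start region with PSMB9, was higher in shCHD4 by 0.30 (adjusted p = 5.9e-05) at 1% O2 and 0.53 (adjusted p = 6.6e-08) at 20% O2. With centring on neighbours it was at -0.14 at 1% O2 and 0.07 at 20% O2.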

How the data were processed

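Polyadenylated RNA of 8 MDA-MB-231 libraries was analysed from the table of values per gene that the authors deposited. Build hg19, the aligner TopHat, featureCounts and edgeR stand in the submitters' processing notes, beside Picard 1.127, FastQC 0.11.2 and bcl2fastq 2.17. The annotation and the strand setting used are not given in these sources. The table is named FPKM, but the deposited values are a signal proportional to reads: 100% are whole multiples of 1 step per library within 0.01 reads, so the whole reads were recovered, and the authors did not divide them by length. The design had assumed FPKM, and its test was kept. Of 19583 rows, 27 have names turned into dates and 4 share a name with another.

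Genes with a mean of at least 1 (12645) were tested on log2(value + 0.5) by a single limma 3.58.1 model (R 4.3.3) holding the means of the 4 groups and a trend of variance on level. It had 4 residual degrees of freedom and 13.9 prior ones. Tests were two-sided, and p-values were adjusted by Benjamini-Hochberg with a threshold of 0.05. Values given without a named alternative come from this fit, and its fold changes understate those of low genes. The fit was tested on simulated data. Alternatives included edgeR 4.0.16 and DESeq2 1.42.0 on the recovered reads. Members, lists and tests were chosen with earlier results of these data known. Named with library values are the immune genes and their counterparts, activators, inhibitor, core chaperones, PSMC3IP and the 5 members with the smallest p each way in each comparison. From the related lists up to 4 genes with the smallest p in each comparison are named, except that some are not reported here. PSMA1, PSMA4, PSMC3 and PSMD4 were named after their values were seen. Same-numbered replicates were not treated as pairs: correlations of their deviations ran from -0.121 to 0.124. Replicates differed by more than counting noise, with chi-square values of 2.07 to 4.29 for each degree of freedom. Intervals are at 95%. Of 47 members looked up, 12 have a named pseudogene in GENCODE and 4 an antisense gene. Lengths came from GENCODE, and gene order and promoters from RefSeq, of another build than the table's.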

Additional observations from a re-analysis of the deposited data

Results flagged for a closer look

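PSMD2 and PSMF1 were singled out because the libraries of the labels moved in opposite directions between 1% and 20% O2. For PSMD2 both shCHD4 libraries at 1% O2 were below those at 20% O2 and both shSC libraries were above, with a difference of -0.185 between the O2 changes on the log2 scale (adjusted p = 0.077 in limma). For PSMF1 the pattern was the same, at -0.133 (adjusted p = 0.26). Neither difference passed the test. Of all 12645 tested genes 759 (6%) showed opposite directions, so 2 of 46 is near that share.

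ADRM1 and NLRC5, which are not members, were singled out because the test of the difference between the labels passed. For ADRM1 the O2 change under shCHD4 minus that under shSC was -0.283 (adjusted p = 0.012), and for NLRC5 it was 0.451 (adjusted p = 0.025). Both calls were lost in limma with no filter on low values (adjusted p = 0.064 and 0.087). The ADRM1 call was also lost with no variance trend (adjusted p = 0.12), and the NLRC5 call with DESeq2 (adjusted p = 0.12).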

How the results depend on the processing

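Between labels 34 to 39 members passed at 1% O2 and 33 to 39 at 20% O2 over the alternatives that kept every library compared. Divided by library totals, 34 members were higher and 5 lower at each O2 level. Of all 12645 tested genes 5791 were then higher and 4046 lower at 1% O2, and 5373 and 4290 at 20% O2. For O2 under shSC 24 to 38 members passed. The fewest passed with no variance trend, where 23 members fell, as did 1792 of all tested genes. The most passed with library totals, where 37 members fell, as did 3351 of all. For O2 under shCHD4 the 28 calls became 17 with no filter on low values, 13 with no variance trend and 8 to 33 on leaving out 1 library. In the interaction 0 became 1 with DESeq2, where 181 of all tested genes passed as higher and 205 as lower. Leaving out 1 library could also change that number. Of the 140 calls of the 48 tested members, 80 held in every alternative. Over 2967 recomputed values of these calls 2738 kept their call, 213 lost it, 103 of them on leaving out a library, and 16 changed sign. For values that passed in neither fit a change of sign was not counted.

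Centring on neighbouring genes changed the sign of label differences at 1% O2 for PSMB10 (-0.43), PSMB7 (0.054), PSMB8 (-0.028), PSMC3 (0.27), PSMD2 (0.038), PSMD4 (-0.17), PSMD7 (-0.022), PSMG1 (0.22), PSMG2 (0.16) and TAP1 (-0.14). At 20% O2 it did so for PSMB7 (0.10), PSMB8 (-0.22), PSMC3 (0.33), PSMC3IP (-0.079), PSMD13 (0.15), PSMD2 (0.18), PSMD4 (-0.058), PSMD7 (-0.014), PSMG2 (0.069), PSMG3 (-0.021) and NGLY1 (0.14). Quantile normalization did so for PSMD14 between labels at 1% O2 (0.11) and for PSMD2 under O2 in shSC (-0.063) and between labels at 1% O2 (0.0073) and 20% O2 (0.023). Beyond this construction, the cause was not tested. CHD4 was higher in shCHD4 at 1% O2 when divided by library totals (0.19), median centred (0.10), quantile normalized (0.23) or centred on neighbours (0.22), and at 20% O2 when quantile normalized (0.11) or centred on neighbours (0.20).

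With a replicate block, 25 members passed for O2 under shCHD4, 34 under shSC, 36 between labels at each O2 level and 0 in the interaction. The labels do not say that the numbers pair cultures. Pairing replicate 1 at 1% O2 with replicate 2 at 20% O2 under shCHD4, an alternative added after the data were seen, gave 31. Of these 30 fell, where 1320 of all tested genes fell and 1517 rose. Exact permutation of 2 against 2 libraries allows no small p, and 2 libraries a group limit every interval.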
